A study of Mus musculus with 5 samples.

Results

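The claudins described here are 10 genes of the tight junction, Cldn1, Cldn3, Cldn4, Cldn6, Cldn7, Cldn10, Cldn12, Cldn15, Cldn22 and Cldn23, measured in the uterus of young mice. They were taken as every probe whose target name is CLDN1, CLDN3, CLDN4, CLDN6, CLDN7, CLDN10, CLDN12, CLDN15, CLDN22 or CLDN23, which gave 16 of 45281 probes and 10 of 29527 names. The members were chosen by their measured differences between the groups and their signal in controls, so these values are given as a description and no p is attached to them. Total RNA came from uterine tissue of mice aged 15 days on a background named C57BL/6J;129S5/Brd mixed hybrid. The 2 Dicer cKO pools, numbered 10 and 12, carried a Cre knockout of Dicer driven from the progesterone receptor locus, and the 3 control pools, numbered 7, 9 and 11, were labelled wild type. Cre driven from this locus acts in cells that express the progesterone receptor. How many uteri went into a pool, and whether controls carried Cre or a floxed allele, the labels do not say. Each pool was read on 1 Illumina bead array, so errors of the fit and its p-values rest on the spread between these pools. The fit draws the spread of each probe toward that of probes of like intensity. Its SE is therefore not the spread of that probe alone.

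Claudins are small membrane proteins that line up as strands where neighbouring epithelial cells touch and close the space between the cells. The mix of claudins in a strand sets which ions and molecules pass: some members seal, while others form channels for chosen ions. In the uterus they hold apart the lumen, the gland ducts and the stroma. Dicer cuts microRNA precursors into the mature microRNAs that dampen many transcripts.

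Each array detected 47.0% to 49.5% of its probes, and the 22845 probes detected on at least 2 of the 5 arrays were fitted. They stand for 15733 genes. Between 23 and 64 beads lay behind each member probe on each array. Of the 16 member probes 14 were fitted. The remaining probes, 1 of 4 for Cldn10 and 1 of 3 for Cldn15, were not detected on any array, and each gene is otherwise given by its brightest probe. Among markers of the uterus, 13 of 14 were measured and Emx2 was not detected on any array. Dicer1 itself was lower by its brighter probe, with a difference of -0.43 ± 0.09 (SE; limma adjusted p = 0.0233), and -0.22 ± 0.13 by its dimmer one (limma adjusted p = 0.392). Pgr, the locus that carries Cre, differed by -0.77 ± 0.14 (limma adjusted p = 0.00793). The array type in the labels is a human one, while the files hold names of mouse genes.

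The family split. In Dicer cKO pools Cldn6 stood 8.32-fold above controls, while Cldn10, Cldn23, Cldn3, Cldn1 and Cldn22 stood 4.71-fold, 3.69-fold, 2.79-fold, 2.68-fold and 2.65-fold below them. Cldn4 and Cldn15 were higher by 1.46-fold and 1.38-fold, and Cldn7 and Cldn12 had differences of 0.35 and 0.31 on the log2 scale. By the array-wide threshold, a limma Benjamini-Hochberg adjusted p under 0.05 over all 22845 probes, 3 of the 10 were higher, 5 were lower and 2 did not pass. That threshold was passed by 6.57% of all genes, with 2.68% higher and 3.88% lower. For 9 of the 10 the Dicer cKO pools did not overlap the controls, a state that 37.6% of all genes reached. Counted by probe, 3 of the 14 fitted were higher and 8 lower, where 2.35% and 3.52% of all probes were (5.87% in all). Among the 8 lower, the dimmer probe of Cldn22 entered the fit through the control arrays alone. The groups were apart for 13 of the 14, with Dicer cKO above for 5 and below for 8, against 19.6% and 17.1% of all probes (36.7% in all). Since these differences served to choose the genes, nothing is read from these counts. In a bulk tissue, fewer cells of a type and less RNA per cell cannot be told apart, which holds for each difference below.

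**Figure D1:**
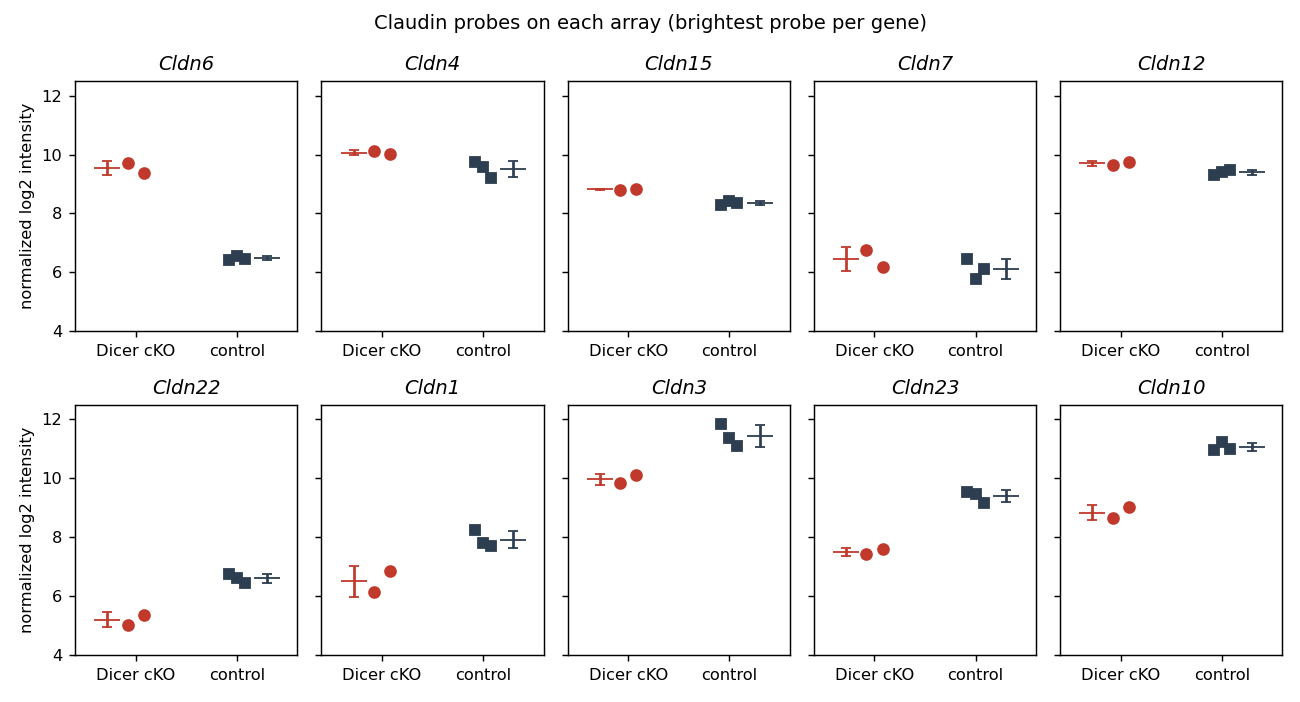
Normalized log2 intensity (vertical axis) of the brightest probe of each claudin, with the Dicer cKO pools as circles left and the control pools as squares right; the crossbars beside them show the mean and SD (n = 2 and 3). The Cldn6 circles at 9.71 and 9.37 lie far above its squares, the circles of the 5 genes in the lower row lie below theirs, and only Cldn7 overlaps.

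Cldn6, a claudin best known from embryonic epithelia and scarce in most adult tissues, read 9.71 and 9.37 log2 units in Dicer cKO pools 10 and 12, against 6.43, 6.56 and 6.46 in control pools 7, 9 and 11. Both Dicer cKO pools lay far above the controls, which sat within 0.13 log2 units of each other. The difference was 3.06 ± 0.13 (SE of the fit across all probes), the 8th in size among 15733 genes. Its size depends on the processing, with 2.69 for no background correction and 2.66 for an offset of 50. It was 2.88 without Dicer cKO pool 10 and 3.23 without pool 12. On the deposited linear scale, before any correction, the beads averaged 808.8 ± 33.3 and 702.4 ± 24.1 (SE over beads) in the Dicer cKO pools and 127.0 ± 4.98, 129.3 ± 6.13 and 110.8 ± 4.83 in the controls. Its neighbour on chromosome 17 is Cldn9, a claudin needed for hearing in mice, with no coding gene between them. Cldn9 read 5.60 and 5.69 in Dicer cKO pools and 5.81, 5.78 and 6.05 in controls, a difference of -0.24 ± 0.14 (limma adjusted p = 0.409), and its groups did not overlap although it did not pass.

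Cldn4 and Cldn3 encode barrier claudins that both serve as receptors for an enterotoxin of Clostridium perfringens, and the genes lie next to each other on chromosome 5 with no coding gene between them. They differed in opposite directions. Cldn4 read 10.13 and 10.01 in Dicer cKO pools 10 and 12, against 9.76, 9.59 and 9.22 in control pools 7, 9 and 11. All Dicer cKO values were higher, but the highest control was 0.54 above the lowest, about as far as the groups stood apart (0.55 ± 0.14). Cldn4 missed the array-wide threshold in 8 of 13 alternative settings, among them those without Dicer cKO pool 10 or 12 or control pool 9 or 11. Cldn3 read 9.83 and 10.10 in Dicer cKO pools, against 11.83, 11.38 and 11.11 in controls. Here the lowest control still lay well above both Dicer cKO pools, with a difference of -1.48 ± 0.17. The controls kept the same order for both genes, with pool 7 highest and pool 11 lowest, as they also did for Cldn1, Cldn22 and Cldn23.

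Cldn7, which binds the adhesion protein EpCAM and is needed for an intact gut epithelium in mice, read 6.76 and 6.17 in Dicer cKO pools, against 6.45, 5.78 and 6.11 in controls. It was the 1 member whose groups overlapped, with a difference of 0.35 ± 0.22 and a gap of 0.59 between the Dicer cKO pools. Cldn1, the claudin whose loss opens the skin barrier in newborn mice, read 6.13 and 6.87 in Dicer cKO pools, against 8.24, 7.80 and 7.71 in controls. Both Dicer cKO pools lay below all controls, at a difference of -1.42 ± 0.22. The Dicer cKO pools differed from each other by 0.74, with linear bead means of 94.0 ± 4.68 and 149.2 ± 9.17 (SE over beads) in pools 10 and 12, a gap larger than the error over beads. Without Dicer cKO pool 10 the difference was -1.05 and missed the array-wide threshold.

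The promoter windows of Cldn6, Cldn4, Cldn3 and Cldn7 are shown because these are the members whose windows hold the hexamer CACCTG, read on both strands and so also seen as CAGGTG, the E-box form bound by the Snail and ZEB repressors of epithelial genes. RefSeq windows on GRCm38.p6, each from 250 bases before to 50 bases after a transcription start, matched 9 of the 10 members in 13 windows. The hexamer stood in 4 of these 13 windows, against 20.2% of all 32851 windows of the same length. Of these genes, Cldn6 and Cldn4 were higher, Cldn3 was lower and Cldn7 did not pass. In the lines below capitals mark the hexamer on either strand. They come from chr17:23679115-23679414 on the plus strand for Cldn6, chr5:134946885-134947184 on the minus strand for Cldn4, chr5:134985964-134986263 on the plus strand for Cldn3 and chr11:69965171-69965470 on the plus strand for the second of 2 windows of Cldn7.
Cldn6: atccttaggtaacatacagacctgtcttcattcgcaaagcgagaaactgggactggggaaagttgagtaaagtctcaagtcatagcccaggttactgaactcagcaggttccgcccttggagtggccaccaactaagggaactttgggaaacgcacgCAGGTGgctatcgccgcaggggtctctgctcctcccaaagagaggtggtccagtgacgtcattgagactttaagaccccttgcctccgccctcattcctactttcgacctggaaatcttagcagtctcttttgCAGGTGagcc
Cldn4: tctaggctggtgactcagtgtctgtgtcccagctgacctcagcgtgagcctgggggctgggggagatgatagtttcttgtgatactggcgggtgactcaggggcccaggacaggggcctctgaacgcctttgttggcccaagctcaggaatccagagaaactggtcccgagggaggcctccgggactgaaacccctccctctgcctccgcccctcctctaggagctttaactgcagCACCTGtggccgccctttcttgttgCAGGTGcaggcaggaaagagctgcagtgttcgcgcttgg
Cldn3: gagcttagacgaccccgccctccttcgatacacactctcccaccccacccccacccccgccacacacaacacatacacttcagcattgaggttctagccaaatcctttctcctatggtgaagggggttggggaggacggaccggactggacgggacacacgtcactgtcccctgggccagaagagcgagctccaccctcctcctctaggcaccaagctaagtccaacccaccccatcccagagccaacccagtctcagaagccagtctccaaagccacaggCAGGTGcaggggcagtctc
Cldn7: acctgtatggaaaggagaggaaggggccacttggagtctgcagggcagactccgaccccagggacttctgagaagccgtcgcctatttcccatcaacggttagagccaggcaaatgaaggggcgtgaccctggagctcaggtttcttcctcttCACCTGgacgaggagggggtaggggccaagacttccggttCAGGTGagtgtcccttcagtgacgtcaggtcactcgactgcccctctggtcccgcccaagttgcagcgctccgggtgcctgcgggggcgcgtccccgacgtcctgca

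The GC box GGGCGG, read on both strands, stood in 9 of the 13 windows, against 35.7% of all windows. Windows 1 and 2 of Cldn12 overlap and hold the same box, which counts in both. By gene, 8 of the 9 members matched had a box in a window, a share that the share of windows does not match in kind. A GC box and a CACCTG can share an end base and no more, and both motifs occur in the windows of Cldn3, Cldn4, Cldn6 and Cldn7. Neither AACCNGTT, a motif of the Grainyhead-like activators, nor TATAAA was found in any of the 13 windows, against 2.09% and 13.6% of all windows. A match is a run of letters and not a measured site.

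Of the channel-forming claudins, Cldn10 was the member with the largest decrease. It makes splice forms that pass either cations or anions and comes from separate starts, and its brightest probe read 8.65 and 9.01 in Dicer cKO pools 10 and 12, against 10.97, 11.23 and 10.99 in control pools 7, 9 and 11. The groups were far apart, with a difference of -2.23 ± 0.12. A second probe read 8.25 and 8.68 in Dicer cKO pools and 10.58, 10.85 and 10.62 in controls, and the remaining one read 7.18 and 7.63 in Dicer cKO pools and 9.62, 9.79 and 9.73 in controls. All 3 fitted probes thus differed alike, by between -2.31 and -2.21. The labels and files do not say which splice form each probe reads.

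Cldn15, which forms a sodium channel between the cells of the gut, read 8.81 and 8.83 in Dicer cKO pools, against 8.30, 8.43 and 8.35 in controls. Its Dicer cKO pools were 0.02 apart and above all controls, with a difference of 0.46 ± 0.10. It missed the array-wide threshold in 5 of 13 alternative settings, among them those without Dicer cKO pool 10 or 12 or control pool 7 or 9. The second fitted probe of Cldn15, dimmer, read 6.30 and 6.42 in Dicer cKO pools and 6.13, 6.22 and 6.27 in controls. It differed by 0.15 ± 0.13, so the probes of this gene disagree in size. Cldn12, linked in mice to calcium passage between gut cells, read 9.65 and 9.76 in Dicer cKO pools, against 9.31, 9.41 and 9.48 in controls. Its groups did not overlap, but the difference of 0.31 ± 0.09 did not pass the array-wide threshold.

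Cldn23, a claudin of differentiated gut epithelium, read 7.41 and 7.59 in Dicer cKO pools, against 9.55, 9.45 and 9.16 in controls. The pools of each group kept together and the groups stood far apart, with a difference of -1.88 ± 0.13. Cldn22 read 5.03 and 5.37 in Dicer cKO pools by its brighter probe, against 6.75, 6.62 and 6.44 in controls, a difference of -1.41 ± 0.16. The size depends on the treatment of background, with -0.93 for no background correction and -0.89 for an offset of 50. That probe was detected on all 3 control arrays and on pool 12 of the Dicer cKO arrays, while pool 10 narrowly missed the detection threshold. The dimmer probe of Cldn22 was detected on every control array but on none from Dicer cKO. It thus entered the fit through the control arrays alone. The decrease was at least 1.15-fold, counted against the lowest detected signal of each array. Its measured means were 4.42 in Dicer cKO and 5.21 in controls.

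**Figure D2:**
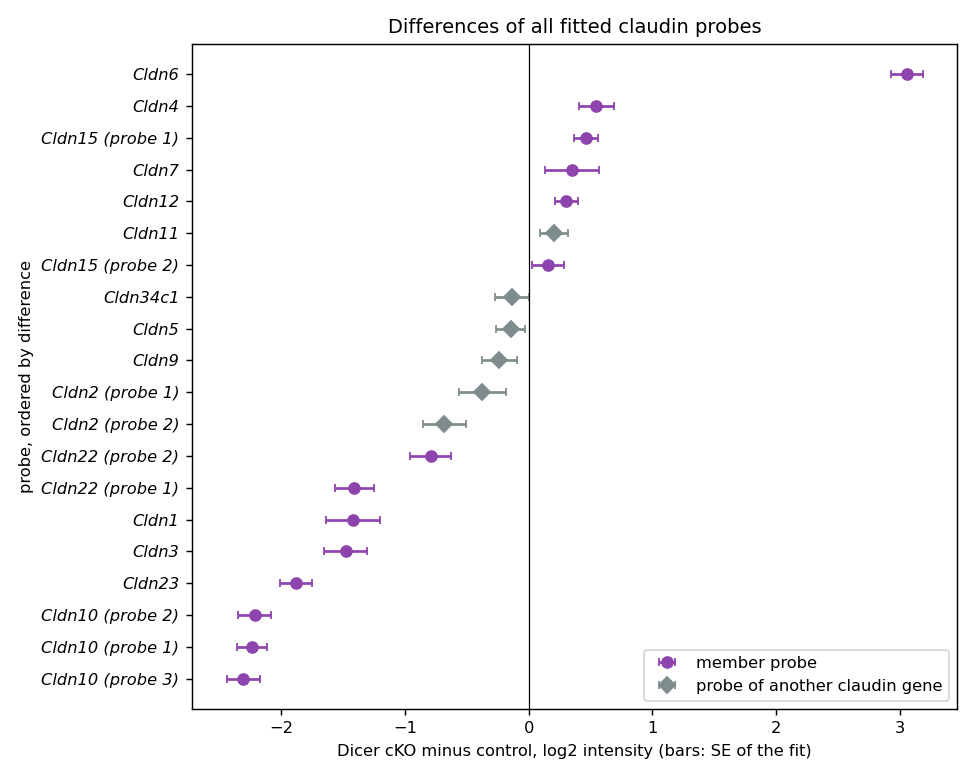
Dicer cKO minus control (horizontal axis, log2 intensity) for every fitted claudin probe, ordered by size, with the SE of the fit as bars; circles are the 14 member probes and diamonds the 6 probes of other claudin genes. Member probes reach from -2.31 to 3.06, the 3 Cldn10 probes lie together at the lowest end, and the diamonds lie between the circles of Cldn22 and Cldn12.

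Dicer cKO pool 10 lay farther from the control mean than pool 12 for 8 of the 10 members, among them all 5 that were lower. Over all genes this held for 60.2%, and over genes past the threshold for 75.9%. Among the controls, pool 7 was the highest for 6 members and the lowest for 4, and pool 11 the lowest for 5.

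The brightness of a probe in controls, given as the percentage of all fitted probes that were dimmer, describes the probe as much as its transcript and ranks no gene above another. The members lower in Dicer cKO lay at a median percentile of 57.2 in Dicer cKO pools and 81.8 in controls. Those higher in Dicer cKO lay at a median of 83.3 in Dicer cKO pools and 69.3 in controls. Cldn3 lay at 87.5 in Dicer cKO pools and 96.1 in controls, and Cldn10 at 75.4 in Dicer cKO pools and 94.7 in controls. Cldn6 moved the other way, with 83.3 in Dicer cKO pools and 41.8 in controls. In controls Cldn7 was at 35.1, Cldn22 at 43.7, Cldn23 at 81.8, Cldn12 at 81.9 and Cldn4 at 83.1. These values took part in the choice of the members, so nothing is read from them.

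**Figure D3:**
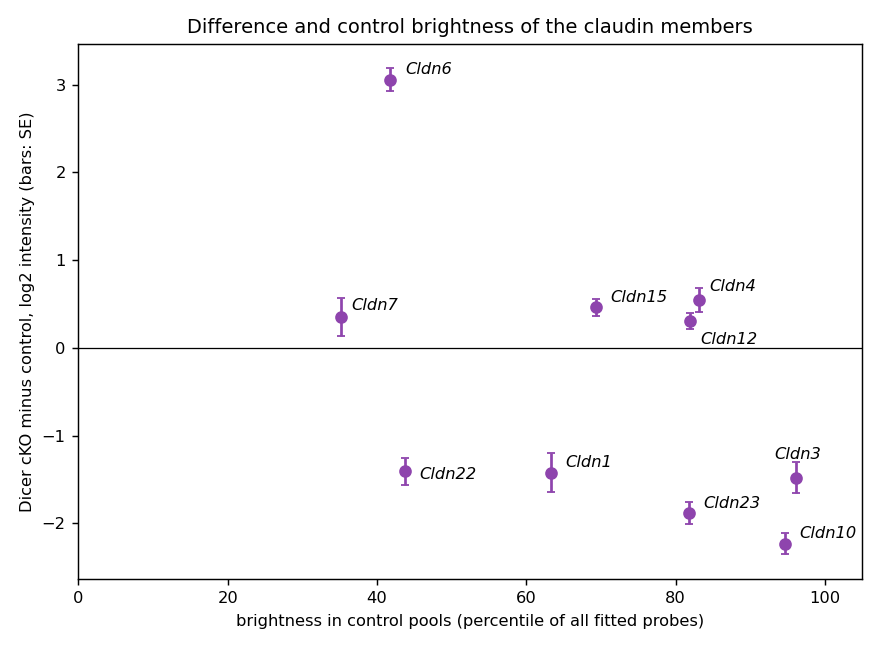
Each point is 1 claudin, placed by the percentile of its brightest probe in control pools (horizontal axis, percent of fitted probes that were dimmer) and by Dicer cKO minus control (vertical axis, log2 intensity, bars SE). Cldn6 stands alone near 3.06 at a percentile of 41.8, and Cldn3 lies farthest right at 96.1 with a difference of -1.48.

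The remaining claudins were left out of the set with these results known, and are given beside it. Of 17 further genes with a claudin symbol, 5 were measured, and by their brightest probe 0 passed the threshold by limma (0 also at an unadjusted p under 0.05), with a median difference of -0.14, against 0.01 over all genes. Cldn5, the claudin of the endothelium, read 9.84 and 10.18 in Dicer cKO pools and 10.31, 10.12 and 10.04 in controls, overlapping groups that differed by -0.14 ± 0.12 (limma adjusted p = 0.563). Cldn11, found in the strands of myelin and testis, differed by 0.21 ± 0.11 (limma adjusted p = 0.353) and Cldn34c1 by -0.13 ± 0.14 (limma adjusted p = 0.658). Cldn2, which forms cation channels, was seen on 2 control arrays and none from Dicer cKO, at least 1.02-fold lower by the brighter of its probes. Its other probe was likewise at background on both Dicer cKO arrays, with measured means of 4.44 in Dicer cKO and 5.12 in controls. That probe passed the array-wide threshold as lower (limma adjusted p = 0.0491). It entered the fit through the control arrays alone, so no size is given for its difference.

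Most other genes of the tight junction did not pass the threshold. Of 34 partners, 29 were measured, 0 rose, 3 fell (10.3%, against 3.88% of all genes) and 26 did not pass, with a median of -0.03, against 0.01 over all genes. At an unadjusted p under 0.05, limma gave 1 higher and 7 lower of the 29, against 10.3% higher and 10.4% lower over all genes. Ildr1, an angulin of the junctions where 3 cells meet, read 5.18 and 5.47 in Dicer cKO pools, against 7.41, 7.04 and 6.72 in controls, and fell by 1.73 ± 0.20 (limma adjusted p = 0.000607). Its groups were far apart, farther than those of any other partner. Tjp3, the scaffold ZO-3, fell by 0.70 ± 0.15 (limma adjusted p = 0.0209) and Patj, a scaffold of the Crumbs polarity complex, by 0.49 ± 0.13 (limma adjusted p = 0.0491). Patj missed the threshold with any 1 control pool left out. The strand protein gene Ocln differed by 0.12 ± 0.14 (limma adjusted p = 0.72) and Tjp1, the scaffold ZO-1, by 0.19 ± 0.13 (limma adjusted p = 0.469). Ildr1 was also past the threshold with any 1 pool left out, while Tjp3 and Patj did not pass and the count of partners that fell was 1 without Dicer cKO pool 10, Dicer cKO pool 12 or control pool 7.

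Among glycoproteins that bind claudin-7, the proteases that cut them and the inhibitors of these proteases, 2 of 5 measured rose (40%, against 2.68% of all genes), with a median of 0.24, and Epcam was not detected on any array. Spint1, an inhibitor of matriptase, read 10.81 and 10.59 in Dicer cKO pools and 9.92, 9.98 and 9.74 in controls, and rose by 0.82 ± 0.10 (limma adjusted p = 0.00118). Both Dicer cKO pools lay above all controls for Spint1, which passed with any 1 pool left out. Without Dicer cKO pool 10, 1 gene of the list was higher. The related inhibitor Spint2 differed by -0.52 ± 0.14 (limma adjusted p = 0.0652).

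Among transcription factors known to act on claudin and other junction genes, 14 of 17 were measured, 3 fell (21.4%, against 3.88% of all genes) and 0 rose, with a median of -0.08. Of the 13 that were detected in both groups, 2 fell. At an unadjusted p under 0.05, limma gave 1 higher and 5 lower of the 14, against 10.3% and 10.4% of all genes. Klf5, an activator in epithelia, read 9.81 and 9.79 in Dicer cKO pools and 10.74, 10.57 and 10.39 in controls, and fell by 0.77 ± 0.10 (limma adjusted p = 0.00176). Grhl2, an activator of Cldn4 in mouse epithelium, read 7.23 and 7.14 in Dicer cKO pools and 7.97, 7.77 and 7.63 in controls, and fell by 0.60 ± 0.13 (limma adjusted p = 0.0223). It did not pass without Dicer cKO pool 10 or 12 or control pool 7 or 9 (limma adjusted p = 0.121, 0.092, 0.0789 and 0.0654). Foxa2, the factor of uterine glands, was seen on all 3 control arrays and none from Dicer cKO, at least 1.12-fold lower. It entered the fit through the control arrays alone. The repressor genes Zeb1 and Zeb2 differed by 0.095 ± 0.08 and -0.28 ± 0.14 (limma adjusted p = 0.554 and 0.327). Without Dicer cKO pool 10, 1 factor was lower.

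Of 22 genes of adherens junctions and desmosomes, 15 were measured, 1 rose, 2 fell and 12 did not pass (20%, against 6.57% of all genes), with a median of -0.07. The plakin genes Ppl and Evpl, which anchor keratin at the cell edge, fell by 0.79 ± 0.18 and 0.46 ± 0.11 (limma adjusted p = 0.0318 and 0.0391). Cdh3, the P-cadherin gene, rose by 0.56 ± 0.14 (limma adjusted p = 0.0439) and Cdh1, the E-cadherin gene, differed by -0.27 ± 0.11 (limma adjusted p = 0.198). These counts rest on single pools: without Dicer cKO pool 10 or 12, 0 rose and 0 fell by limma, and without control pool 7 or 9, 0 rose and 1 fell.

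Markers of epithelial cell types moved beside the claudins. Of 9 gland markers measured, 5 fell and 0 rose, against 3.88% lower and 2.68% higher over all genes, with Cxcl15, Ltf, Lgr5 and Sox17 at -2.70, -1.44, -0.95 and -0.87. Of the 8 detected in both groups, 4 fell. At an unadjusted p under 0.05, limma gave 6 lower and 0 higher, against 10.4% and 10.3% of all genes. The summed linear signal of the list was 1462 to 1840 in Dicer cKO pools, against 2869 to 3132 in controls. Such a sum weighs bright genes most. Sox17 was the brightest of this list, averaging 9.98 log2 units in Dicer cKO pools and 10.84 in controls. Of 11 gland markers, Prss28 and Prss29 were not detected on any array. Of 15 simple epithelium markers, 4 rose and 6 fell (2.68% and 3.88% over all genes), with Rab25, Muc1 and Krt18 at -1.20, -0.93 and -0.86 and Wnt7a at 0.89. Wnt7a read 9.81 and 9.63 in Dicer cKO pools and 8.31, 8.84 and 9.34 in controls (limma adjusted p = 0.0482). Its controls spread wider than its groups differed. Sums of the list were 10510 to 11060 in Dicer cKO pools and 11780 to 12850 in controls. Of 9 stratified epithelium markers, 4 rose and 1 fell (2.68% and 3.88% over all genes), with Lce3c and Krt17 at 3.16 and 2.60. The gene that fell was Krt10, at -0.40 ± 0.09 (limma adjusted p = 0.0274). Krt15 and Sprr1a differed by 0.13 and 0.14 (limma adjusted p = 0.884 and 0.789). The list summed to 1751 to 2007 in Dicer cKO pools and 1042 to 1159 in controls. In it Krt17 averaged 9.46 and Lce3c 8.10 log2 units in Dicer cKO pools, against 6.86 and 4.94 in controls. No control array detected the cornified envelope gene Ivl, at least 2.65-fold higher, or the connexin gene Gjb6, at least 3.47-fold higher. Without this pair, 2 of 7 rose. Of the basal genes, Krt5 differed by 0.12 ± 0.20 (limma adjusted p = 0.812), Trp63 by -0.39 ± 0.15 (limma adjusted p = 0.176), and Krt14 was detected on 1 array. Krt6a, Dsg3 and Dsc3 were detected on none and Krt1 on 1. The part of these cell types, and of those below, in the claudin differences was not tested.

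The counts of markers that follow stand against 2.68% higher and 3.88% lower over all genes by the array-wide threshold, and 10.3% and 10.4% at an unadjusted p under 0.05. At that unadjusted threshold limma gave 1 higher and 2 lower of 10 endothelium markers, and 0 higher and 4 lower of 7 stroma markers. It gave 0 higher and 2 lower of 4 oviduct and ciliated cell markers, and 1 higher and 2 lower of 13 uterus identity markers. The sum of 10 endothelium markers was 14930 to 15860 in Dicer cKO pools and 14840 to 15970 in controls, where 1 gene, Vwf, fell. The sum of 7 mesothelium markers was 3099 to 3585 in Dicer cKO pools and 2961 to 3386 in controls, with 0 genes past the threshold by limma (1 higher at an unadjusted p under 0.05), where Muc16 and Wt1 differed by 0.43 and 0.10 (limma adjusted p = 0.214 and 0.599). Of 4 oviduct and ciliated cell markers 2 fell, Ovgp1 and Tppp3. Foxj1 and Rsph1 differed by 0.12 and 0.06 (limma adjusted p = 0.705 and 0.875). Tekt1 and Pifo were detected on no array, and Mcidas had no probe. The sums were 1049 to 1165 in Dicer cKO pools and 1749 to 2043 in controls. Tppp3 was the brightest of the 4, averaging 9.87 log2 units in Dicer cKO pools and 10.57 in controls. The sum of 3 ovary markers, 199.4 to 209.1 in Dicer cKO pools and 199.0 to 225.3 in controls, overlapped, with 0 genes past the threshold by limma, also at an unadjusted p under 0.05, and with Foxl2 and Inha at -0.10 and -0.04 (limma adjusted p = 0.772 and 0.927). Amh, Fshr, Zp3 and Bmp15 were detected on no array. Of 7 stroma markers 3 fell, Vim, Thy1 and Twist2, with sums of 32990 to 36720 in Dicer cKO pools and 39140 to 40720 in controls. Col1a1 and Dcn, the brightest of that list, differed by 0.09 and -0.19 (limma adjusted p = 0.545 and 0.177). Of 13 uterus identity markers, Wnt7a rose, Amhr2 and Pgr fell and 10 did not pass, with sums of 38950 to 40890 in Dicer cKO pools and 38100 to 39350 in controls.

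**Figure D4:**
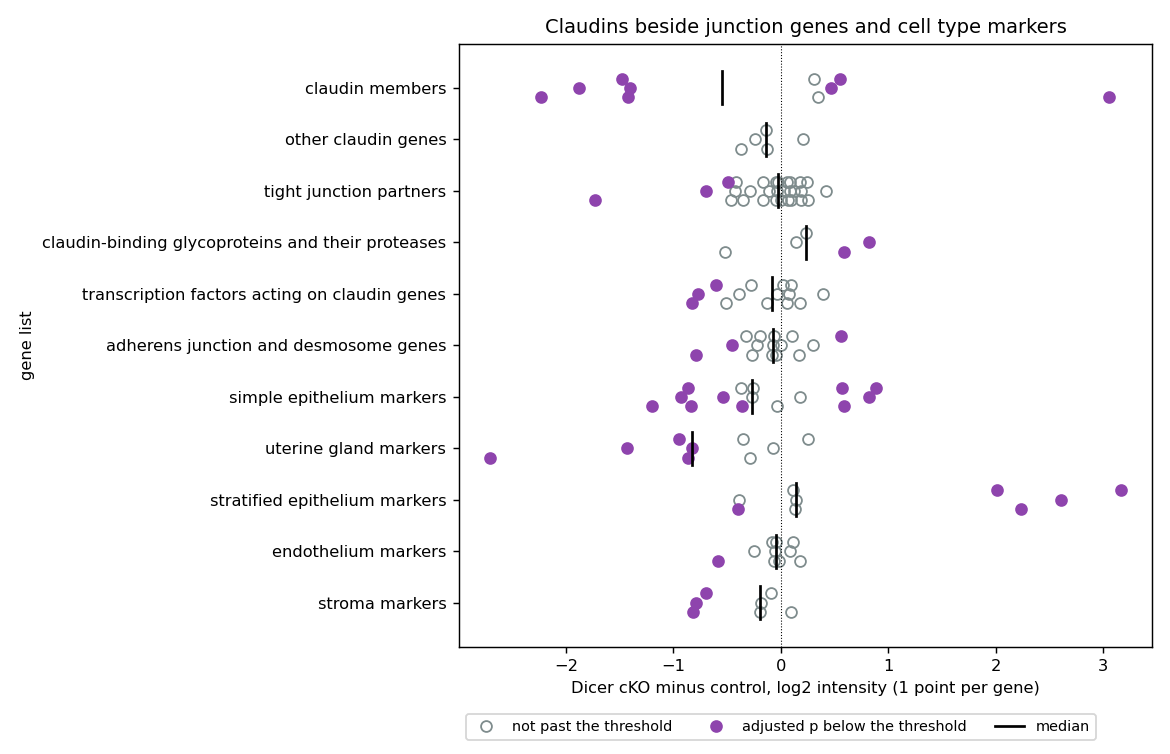
Dicer cKO minus control (horizontal axis, log2 intensity) for each measured gene, 1 point per gene by its brightest probe, in rows for the claudin members, the other claudins, the junction lists and cell type markers; filled points passed the array-wide threshold and the black bar is the median of the row. The members spread from -2.23 to 3.06, while the 29 tight junction partners centre on -0.03 with Ildr1 at -1.73 apart.

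By profile over the 5 arrays, each centred on its own mean, the genes closest to Cldn6 were the cornified envelope gene Lce3c, the retinoic acid enzyme gene Aldh1a3 and the keratin gene Krt17, with root mean square differences of 0.13, 0.25 and 0.25 log2 units. Those closest to Cldn10 were the cytokine receptor gene Il17rb, the synaptic vesicle gene Sv2b and the cytochrome gene Cyp2f2, at 0.105, 0.14 and 0.15. These profiles span 2 groups on 5 arrays and were not scaled, so closeness mostly reflects a like difference between the groups. Lce3c, Aldh1a3 and Krt17 differed by 3.16, 3.53 and 2.60, and Il17rb, Sv2b and Cyp2f2 by -2.20, -2.11 and -2.05. Such differences served to choose Cldn6 and Cldn10, so nothing is read from the closeness. Lce3c averaged 4.94 in controls and Cyp2f2 4.86 in Dicer cKO pools, close to background, where the offset compresses differences.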

How the data were processed

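The mean bead intensity per probe, the SD over beads, the number of beads and a detection score given as a fraction from 0 to 1 were deposited for each of 5 arrays. BeadStudio was used, per the submitters' processing notes, which give no version. Array medians of the deposited intensity ran from 57.5 to 63.0 with no value below 27.9, so the values were treated as raw. A detection p was taken as 1 minus the score. The series' own table of processed intensities was not used here, since its row names did not match the probe numbers of the arrays.

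Signals were corrected with normexp from the detection p (offset 16), quantile-normalized and put on the log2 scale with neqc of limma 3.58.1 in R 4.3.3. Probes were kept where 2 or more of the 5 arrays gave a detection p under 0.05, and fitted on all 5 pools (lmFit, eBayes with an intensity trend, no covariate, 2-sided), with Benjamini-Hochberg adjustment over 22845 probes. The offset compresses differences of dim probes. A gene was given by its brightest probe on average. Array names were brought to symbols of a RefSeq table of GRCm38.p6, where 22864 probes matched a symbol and 11915 a synonym of 1 gene. Summed linear signals are normalized values minus the offset, so the brightest genes of a list weigh most. The fit was tested on simulated data. Since 5 pools allow few splits, no permutation test was used. Alternatives covered background, offset, scaling, filter, prior, 1 probe per gene, and each pool left out. Named beside the members and every measured claudin were up to 4 genes past the threshold in each list with the largest difference, or 2 by moderated t where there was none, the 3 genes most like Cldn6 and Cldn10, Dicer1 and Pgr; Ocln, Tjp1, Cdh1, Spint2, Zeb1, Zeb2, Krt5 and Trp63 were named after their values were seen. The values of 1 listed gene that this rule names are not reported here. Foxj1, Rsph1, Krt10, Krt15, Sprr1a, Col1a1 and Dcn were likewise named after their values were seen. The members and lists were chosen with earlier results of these data known.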

Additional observations from a re-analysis of the deposited data

How the results depend on the processing

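All 10 claudins kept their direction in each of the 13 alternatives that measured them. Their differences on these same arrays served to choose them, so nothing is read from the passes and counts of members given next. Cldn6, Cldn10, Cldn3, Cldn23 and Cldn22 were past the array-wide threshold wherever their brightest probe was fitted, while Cldn1 missed it without Dicer cKO pool 10, Cldn15 in 5 alternatives and Cldn4 in 8. The number of higher members was 1 with median scaling and between 1 and 2 with a pool left out, and that of lower members between 4 and 5 with a pool left out. The number of probes higher in Dicer cKO was 349 without an intensity trend, and with a pool left out it ran from 104 (without Dicer cKO pool 10) to 512, against 252 to 723 lower. Of adherens junction and desmosome genes, 0 were higher under median scaling, with no detection filter and without the trend, where 0, 1 and 1 were lower, and with a pool left out 0 to 1 were higher and 0 to 1 lower. Of the tight junction partners 1 to 2 were lower, of the transcription factors 1 to 3 were lower, and of the claudin-binding group 1 to 2 were higher with a pool left out. With no detection filter, 1 transcription factor was higher. The cause of these changes was not tested. No paired analysis was possible because the groups share no pool number. With 2 Dicer cKO pools, leaving out either leaves a single array assumed to vary like the controls. Dim probes, such as those of Cldn22 and Cldn2, lie close to background.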
